A study of Homo sapiens with 6 samples.

Results

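Messenger RNA of 10 genes of the Notch pathway was examined in Rh30 cells with and without knock-down of DDX5. The genes were chosen by name and function, but with earlier results of these data known. The receptors are NOTCH1, NOTCH2 and NOTCH3, the ligands JAG1, JAG2 and DLL1, the nuclear proteins RBPJ and MAML1, and the targets HES1 and HEY1. These genes are 10 of 35580 to which transcripts of the deposited tables could be joined. All 10 had enough counts to be tested among 15223 genes. Rh30 is an alveolar rhabdomyosarcoma line that carries the PAX3-FOXO1 fusion, and all 6 libraries come from it. The comparison is of 3 control libraries with 3 libraries of cells labelled siDDX5. The submitters call them biological replicates but do not say that the cultures were separate or what the control cells received, so p-values measure the spread between these libraries. DDX5 encodes a DEAD-box RNA helicase that acts in transcription and in RNA processing.

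Notch receptors are carried on the cell surface and are activated by Jagged and Delta-like ligands on neighbouring cells. Binding leads to cleavage of the receptor by ADAM proteases and then by gamma-secretase, and the freed intracellular part enters the nucleus. There it joins the DNA-binding protein RBPJ and a Mastermind coactivator such as MAML1 and switches on repressor genes of the HES and HEY families. In skeletal muscle the pathway is known for holding precursor cells back from differentiation.

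Depth and identity were checked first. Libraries held 18202402 to 26156858 estimated counts, and the deepest siDDX5 library had fewer than the shallowest control library. A count of 3 corresponded to 0.115 to 0.165 CPM (counts scaled to a common library total), the floor below which a level was not read. Of 8 skeletal muscle and rhabdomyosarcoma markers, 1 had a mean under 1 TPM (a level per transcript length, scaled to a common total). Their summed level was 942 to 1240 TPM in the control and 927 to 978 TPM in the siDDX5 libraries. Summed immune, endothelial and epithelial markers each stayed at or below 7.27 TPM in every library, and fibroblast and pericyte markers at or below 43.8 TPM. DDX5 itself was lower in all 3 siDDX5 libraries (log2 fold change -1.44, edgeR adjusted p 0.0106). Same-numbered control and siDDX5 libraries shared deviations across genes, so a second fit, with the replicate number as a blocking factor (the block), is given where it changes a call.

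The promoter of HES1, the best-known target, holds a match to the DNA word that RBPJ is known to bind. RBPJ binds the word GTGGGAA, whose core is TGGGAA. Both words were searched on both strands from 250 bases before to 50 bases after each RefSeq start site (GRCh38.p14), and a match to the longer word also counts as a match to the core. In the sequence of HES1 the capitals mark 2 core words, of which the first is part of the longer word. The promoter of NOTCH1, the 1 member called with the block, is shown for contrast and holds neither word. Both are written 5′ to 3′ on the strand of the gene, at chr3:194135898-194136197 on the plus strand for HES1 and chr9:136545999-136546298 on the minus strand for NOTCH1.
HES1 promoter: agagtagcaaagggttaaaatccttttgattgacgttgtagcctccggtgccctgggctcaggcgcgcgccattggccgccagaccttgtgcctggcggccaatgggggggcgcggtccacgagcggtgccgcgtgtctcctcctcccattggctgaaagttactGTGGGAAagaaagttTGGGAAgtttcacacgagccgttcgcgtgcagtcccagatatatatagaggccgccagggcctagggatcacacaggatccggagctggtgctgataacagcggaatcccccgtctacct
NOTCH1 promoter: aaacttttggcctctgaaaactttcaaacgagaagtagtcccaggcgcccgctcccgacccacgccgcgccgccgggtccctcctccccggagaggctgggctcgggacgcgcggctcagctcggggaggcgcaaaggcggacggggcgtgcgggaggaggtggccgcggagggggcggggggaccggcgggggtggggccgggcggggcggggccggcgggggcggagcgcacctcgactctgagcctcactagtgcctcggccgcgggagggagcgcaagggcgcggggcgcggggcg

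The longer word of HES1 starts 85 bases before the start site, and the other core word starts 70 bases before it, in the same direction. Of 35116 promoters searched, 6.2% held the longer word and 24.0% the core, and 3.80% held 2 or more cores. Among the members with an entry, 1 of the 5 RBPJ promoters also held 2 longer words, 1 in each direction. Promoters of NOTCH2, NOTCH3, JAG1, JAG2 and MAML1 held neither word. DLL1 had no entry, and member promoters on chromosome 8, where HEY1 lies, were left out of this search. Other forms of the RBPJ site were not searched. A match describes the letters and is not evidence of binding.

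Levels per length were compared next, as TPM over the 6 libraries. A gene level sums all its transcripts, short retained-intron ones included, and the order of the members depends on this. RBPJ had the highest mean, 96.7 ± 21.1 TPM (SD, n = 6), followed by NOTCH2 at 90.6 ± 11.4 TPM (SD, n = 6). The libraries of these 2 genes overlapped, with RBPJ above NOTCH2 in 3 of 6. Both lay above every library of the remaining 8 members. The main protein-coding transcript alone had a mean of 38.4 TPM for RBPJ and 73.6 TPM for NOTCH2. MAML1 had 24.4 ± 5.14 and JAG2 21.2 ± 4.01 TPM (SD, n = 6 each), and their ranges overlapped. The main MAML1 transcript, of 5748 bases, had a mean of 14.2 TPM. Retained-intron MAML1 transcripts of 392 and 890 bases had means of 3.41 and 1.68 TPM. Each of these was listed again, with equal values, outside the primary assembly, and the MAML1 sum holds both copies. Of the JAG2 mean, 10.9 TPM lay on a retained-intron transcript of 768 bases and 5.62 TPM on the main protein-coding transcript. NOTCH1 had 13.2 ± 2.76 and JAG1 12.8 ± 2.46 TPM (SD, n = 6 each), and each was the higher one in 3 of 6 libraries. Their main protein-coding transcripts had means of 11.5 and 7.84 TPM, above that of JAG2. JAG1 in turn lay above DLL1 in every library, with no overlap of their ranges. At the low end were DLL1 with 7.22 ± 0.923, NOTCH3 with 7.00 ± 2.49, HEY1 with 5.90 ± 1.69 and HES1 with 3.03 ± 0.943 TPM (SD, n = 6 each). The ranges of neighbours in this group overlapped, but HES1 was below HEY1 in all 6 libraries. NOTCH2 was thus the most abundant of the 3 receptors. The 2 target genes had the lowest means of the 10, but NOTCH3 lay above HEY1 in only 3 of 6 libraries.

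**Figure D1:**
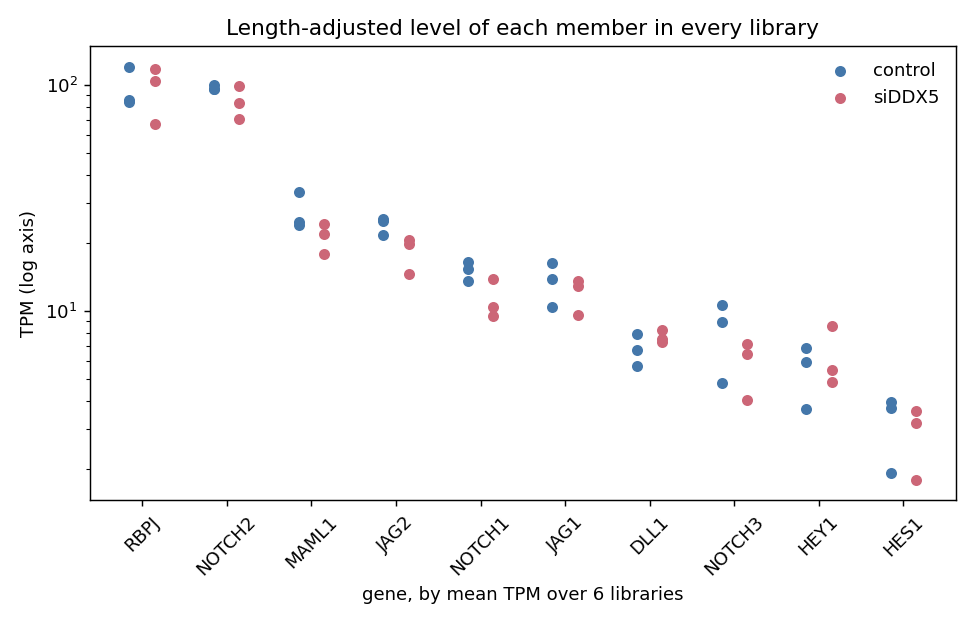
TPM of each member in the 3 control and 3 siDDX5 libraries, on a log axis, with genes ordered by their mean over all 6. RBPJ and NOTCH2 lie between 67.0 and 121 TPM, above every library of the other 8 members, and HES1 between 1.80 and 3.96 TPM.

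The main question was which members differed between siDDX5 and control cells. By quasi-likelihood F-test in edgeR, adjusted over all 15223 genes after Benjamini and Hochberg, 0 of the 10 members passed at 0.05, where the background was 0.164% of genes (0.0526% higher and 0.112% lower). Before adjustment 1 member, NOTCH1, had p under 0.05 and was lower, against 11.4% of all genes (5.37% higher and 6% lower). DESeq2 and limma-trend also called 0 members, with 1 and 2 at an unadjusted p under 0.05. With the replicate block 1 member was called, NOTCH1, against 2.59% of all genes (1.14% higher and 1.45% lower). Another 2, NOTCH3 and MAML1, joined NOTCH1 at an unadjusted p under 0.05 with the block, all 3 lower, against 20.5% of all genes (10.2% higher and 10.3% lower). The median log2 fold change was -0.16 over the members and -0.00 over all genes tested, with 7 members below 0 and 3 above it, against 50.4% and 49.6% of all genes. In 3 members, NOTCH1, JAG2 and MAML1, every siDDX5 library lay below every control library, and in 0 above, against 9.16% and 8.87% of all genes. With 10 members these counts describe the set and do not set it apart from the rest of the genes.

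**Figure D2:**
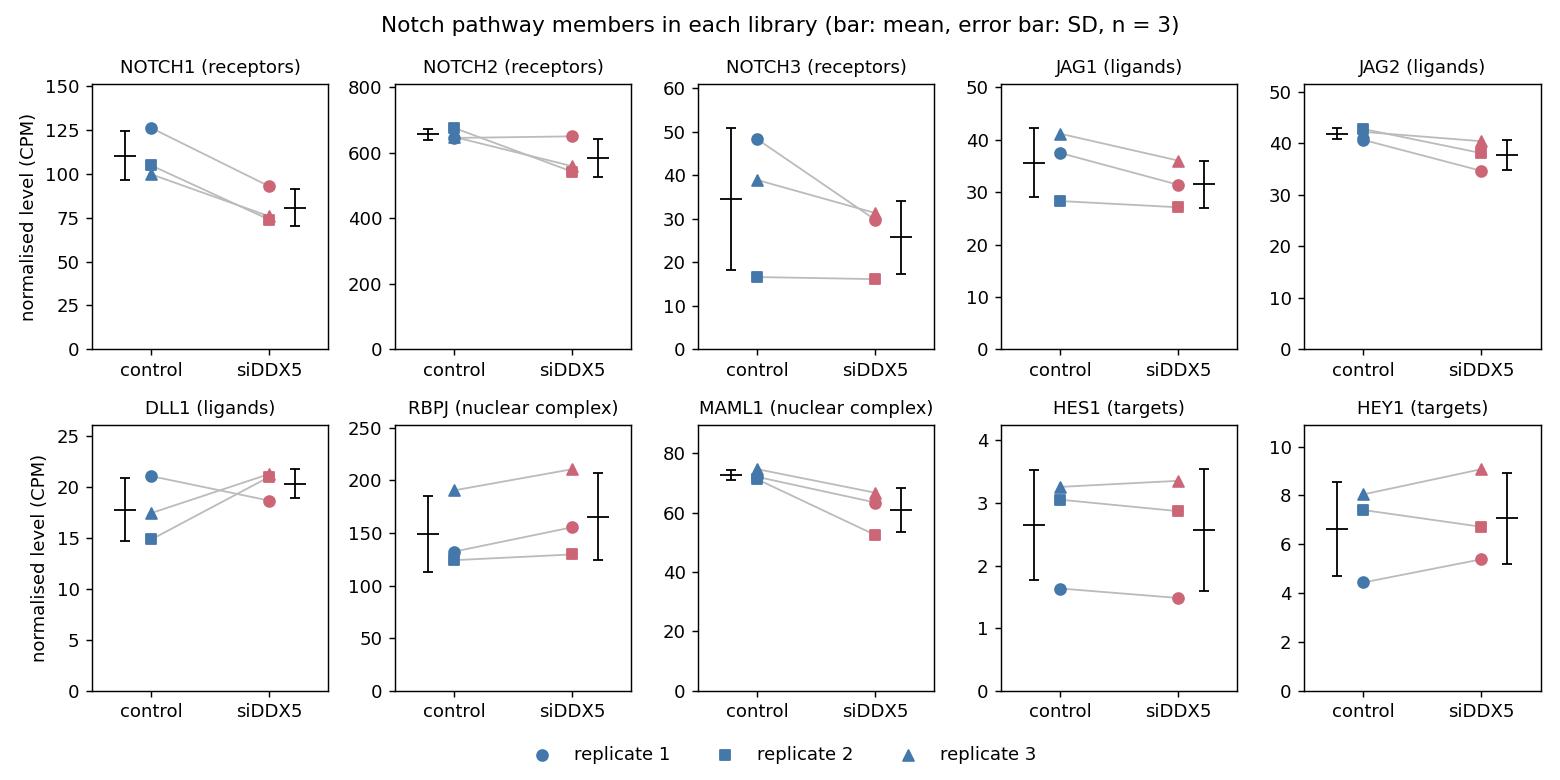
Normalised level of each member in CPM, with libraries of the same replicate number joined by a line, and the mean and SD (n = 3) drawn beside each group. NOTCH1 is lower in siDDX5 cells along all 3 lines, while HES1 and HEY1 differ more between replicate numbers than between groups.

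Among the receptors, NOTCH1 was the one called with the block. NOTCH1 (ENSG00000148400.10, chromosome 9, 136494433 to 136545786, minus strand, GRCh38) had 126, 105 and 99.6 CPM in control replicates 1, 2 and 3, and 92.7, 73.8 and 75.7 CPM in siDDX5 replicates 1, 2 and 3. All 3 siDDX5 libraries were below all 3 control libraries. Within a replicate number the level was lower by a similar share each time, with changes of -26.4%, -29.5% and -24.0%. The means were 110.1 ± 14.0 and 80.7 ± 10.4 CPM (SD, n = 3 each), a 1.36-fold lower level. Its log2 fold change was -0.45 (standard error 0.13, 95% interval -0.75 to -0.15), and the edgeR adjusted p was 0.250, or 0.0259 with the replicate block. That call was lost when a per-library GC trend was removed as well (-0.34, edgeR adjusted p 0.0791) and when replicate 3 was left out of both groups (-0.47, edgeR adjusted p 0.166). The GC content of NOTCH1 transcripts was 63.0%, and the part of base composition in the result was otherwise not tested.

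NOTCH2 was the most abundant receptor and did not pass the test. NOTCH2 (ENSG00000134250.19, chromosome 1, 119911553 to 120069626, minus strand) had 645, 676 and 648 CPM in control and 649.8, 542 and 559 CPM in siDDX5 replicates 1, 2 and 3. Replicate 1 of the siDDX5 cells lay within the control range, and the other 2 lay below it. On the log2 scale the change was -0.17 (standard error 0.11, 95% interval -0.41 to 0.08, edgeR adjusted p 0.594). Part of NOTCH2 has a near-identical copy in NOTCH2NLA, so the division of reads between these 2 genes is uncertain. NOTCH2NLA (ENSG00000264343.5, chromosome 1, 146146203 to 146229026) had 28.4, 33.6 and 29.8 CPM in control and 25.5, 18.0 and 19.97 CPM in siDDX5 libraries. Its groups did not overlap, and its log2 fold change was -0.53 (standard error 0.15, edgeR adjusted p 0.239).

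NOTCH3, a receptor known from vascular smooth muscle, had a fold change like that of NOTCH1 but a far wider spread. NOTCH3 (ENSG00000074181.8, chromosome 19, 15159038 to 15200981, minus strand) had 48.3, 16.6 and 38.9 CPM in control and 29.7, 16.1 and 31.3 CPM in siDDX5 replicates 1, 2 and 3. Replicate 2 was the lowest library of each group, and the groups overlapped. The estimated log2 fold change was -0.43 (standard error 0.36, 95% interval -1.23 to 0.37, edgeR adjusted p 0.695). With the replicate block the standard error was 0.13 and the adjusted p 0.158 in edgeR. Of the cell type markers, 1 of 8 for skeletal muscle (MYOG) and 1 of 5 for fibroblasts and pericytes (PDGFRB) were lowest in replicate 2 of both groups. So were 1 of 5 immune, 0 of 4 endothelial and 2 of 4 epithelial markers. Of the epithelial ones, EPCAM had 3, 2 and 2 counts in siDDX5 replicates 1, 2 and 3, no more than the floor of 3 counts. The share of all genes with this pattern was not computed. The log2 fold change of NOTCH3 was -0.28 with the GC correction, and -0.26 with the block and GC correction together. It also moved with single libraries: it was -0.11 without control replicate 1 and -0.76 without control replicate 2. In the block fit without replicate 2 of both groups it was -0.51 with an edgeR adjusted p of 0.00149. That fit was added after the data were seen. It called 1241 genes, against 395 in the block fit with all libraries.

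None of the 3 ligands was called in either fit. JAG1 (ENSG00000101384.12, chromosome 20, 10637684 to 10673999, minus strand) had 37.5, 28.3 and 41.2 CPM in control and 31.4, 27.1 and 36.0 CPM in siDDX5 replicates 1, 2 and 3. The groups overlapped, although the siDDX5 library was the lower one within each replicate number. Its log2 fold change was -0.18 (standard error 0.16, 95% interval -0.55 to 0.19, edgeR adjusted p 0.728). JAG2 (ENSG00000184916.8, chromosome 14, 105140981 to 105168824, minus strand) had 40.6, 42.7 and 42.2 CPM in control and 34.6, 38.1 and 40.4 CPM in siDDX5 replicates 1, 2 and 3. Its groups did not overlap, but the gap between the lowest control and the highest siDDX5 library was small. The log2 fold change of JAG2 was -0.15 (standard error 0.11, 95% interval -0.40 to 0.09, edgeR adjusted p 0.637), it was -0.39 on log2(TPM + 1), and it was -0.04 with the GC correction.

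DLL1, a Delta-like ligand, was the member with the highest fold change. DLL1 (ENSG00000198719.8, chromosome 6, 170282206 to 170306565, minus strand) had 21.1, 14.9 and 17.4 CPM in control and 18.7, 21.0 and 21.3 CPM in siDDX5 replicates 1, 2 and 3. Control replicate 1 was as high as the siDDX5 libraries, so the groups overlapped. The log2 fold change was 0.19 (standard error 0.15, 95% interval -0.15 to 0.53, edgeR adjusted p 0.682). Of the counts joined to DLL1, 71.2% lay on transcripts outside the primary assembly, and with primary-assembly identifiers alone the value was 0.08. Without control replicate 1 it was 0.34, and without control replicate 2 it was 0.08.

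Of the nuclear proteins, RBPJ is the factor that binds DNA and acts as a repressor when no Notch is present. RBPJ (ENSG00000168214.20, chromosome 4, 26163455 to 26435131, plus strand) had 132, 124 and 190.5 CPM in control and 155, 129.6 and 211 CPM in siDDX5 replicates 1, 2 and 3. Replicate 3 was the highest library of each group, and the groups overlapped. Its log2 fold change was 0.15 (standard error 0.20, 95% interval -0.31 to 0.61, edgeR adjusted p 0.829), and its sign changed to -0.03 on log2(TPM + 1) and to -0.06 without siDDX5 replicate 3.

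MAML1, the coactivator that joins Notch and RBPJ, had groups that did not overlap. MAML1 (ENSG00000161021.12, chromosome 5, 179732850 to 179777286, plus strand) had 72.0, 71.2 and 74.6 CPM in control and 63.4, 52.4 and 66.7 CPM in siDDX5 replicates 1, 2 and 3. Control libraries were close to each other, and siDDX5 replicate 2 was the lowest of the 6. The means were 72.6 ± 1.78 and 60.8 ± 7.46 CPM (SD, n = 3 each). On the log2 scale the change was -0.26 (standard error 0.12, 95% interval -0.51 to 0.00, edgeR adjusted p 0.444). Of its counts, 98.1% lay on transcripts outside the primary assembly, so the fit with primary-assembly identifiers alone, at -0.78, rested on the few counts that were left.

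HES1 and HEY1, the targets that read out Notch activity, did not pass the test and had the lowest counts of the members. HES1 (ENSG00000114315.3, chromosome 3, 194136145 to 194138732, plus strand) had 42, 66 and 79 counts in control and 30, 53 and 61 counts in siDDX5 replicates 1, 2 and 3. These equal 1.63, 3.05 and 3.26 CPM in control and 1.48, 2.87 and 3.36 CPM in siDDX5 cells. Replicate 1 was the lowest library in each group, and same-numbered libraries lay close together. The estimated log2 fold change was -0.05 (standard error 0.36, 95% interval -0.85 to 0.76, edgeR adjusted p 0.979). With the replicate block the standard error was 0.20 and the 95% interval -0.51 to 0.40.

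HEY1 (ENSG00000164683.16, chromosome 8, 79764010 to 79767863, minus strand) had 4.43, 7.40 and 8.04 CPM in control and 5.38, 6.71 and 9.08 CPM in siDDX5 replicates 1, 2 and 3. Replicate 1 was again the lowest and replicate 3 the highest of each group. The log2 fold change was 0.09 (standard error 0.27, 95% interval -0.51 to 0.69, edgeR adjusted p 0.930). With the replicate block it was 0.10 (standard error 0.15, 95% interval -0.24 to 0.44). A decrease as large as the NOTCH1 estimate of -0.45 lay within the HES1 interval of both fits, and for HEY1 within that of the fit without the block but outside that with it. The sign of both targets changed when certain single libraries were left out.

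**Figure D3:**
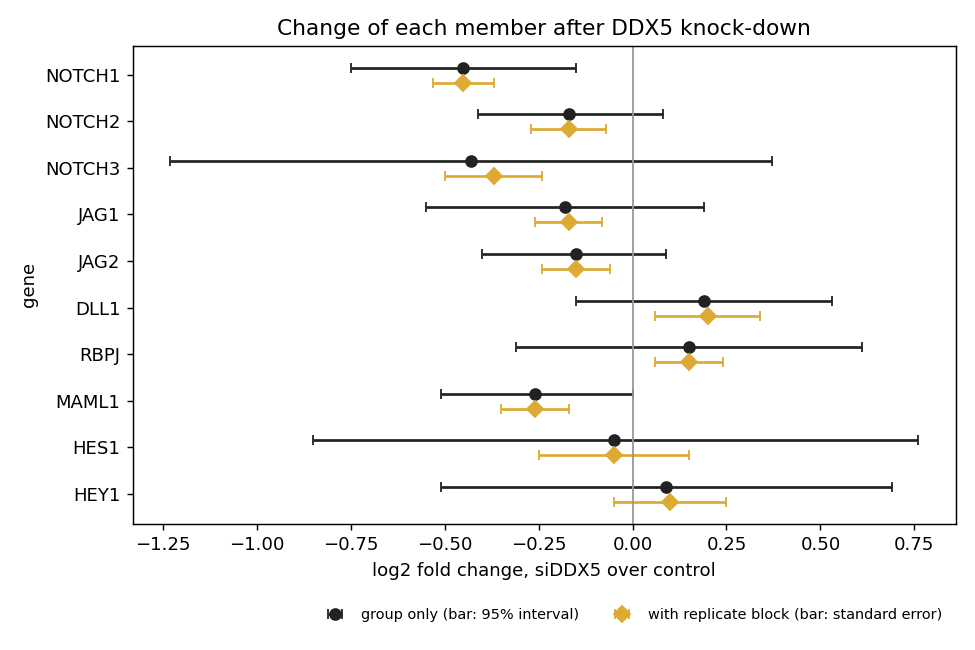
Log2 fold change of each member, siDDX5 over control: black points with 95% intervals from the fit with the group alone, and yellow diamonds with standard errors from the fit with the replicate block. NOTCH1, at -0.45, is the member whose black interval, -0.75 to -0.15, lies wholly below 0, and the estimates of the 2 fits differ little.

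Same-numbered libraries were also compared one by one. In 5 members (NOTCH1, NOTCH3, JAG1, JAG2 and MAML1) the siDDX5 library was the lower one within all 3 replicate numbers, against 21.1% of all genes. In 1 member, RBPJ, it was the higher one within all 3, against 21.8% of all genes. The remaining 4 members went both ways.

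Single transcripts were examined to see what carried these levels. Of 90 transcripts joined to the members, 37 could be tested, and 0 passed at an adjusted p of 0.05 in edgeR, where 0% of all transcripts did, with or without the block. Before adjustment 1 had p under 0.05, the main NOTCH1 transcript, against 7.09% of all transcripts. With the block the RBPJ transcript ENST00000342320.8 joined it (unadjusted p 0.0347 by edgeR), against 7.97% of all transcripts. The NOTCH1 transcript, ENST00000277541.7, is protein-coding and made up 95.5% ± 1.96 of the NOTCH1 counts in control and 95.2% ± 0.961 in siDDX5 cells (SD, n = 3 each). Its own log2 fold change was -0.42 (edgeR adjusted p 0.671). The second NOTCH1 transcript, ENST00000645828.1, is annotated as a retained intron and held 3.86% ± 1.10 and 3.78% ± 1.19 of the counts (SD, n = 3 each).

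The main transcript of NOTCH2, ENST00000256646.7, made up 96.4% ± 0.542 and 97.0% ± 0.565 of its counts in control and siDDX5 cells (SD, n = 3 each). That of NOTCH3, ENST00000263388.7, made up 93.5% ± 2.02 and 94.0% ± 4.70, and that of JAG1, ENST00000254958.10, 90.3% ± 0.860 and 92.2% ± 1.61 (SD, n = 3 each). JAG2 was less uniform. Its highest TPM value belonged to ENST00000553051.1, a short transcript annotated as a retained intron, with 13.0 ± 1.01 TPM in control and 8.88 ± 3.28 TPM in siDDX5 cells (SD, n = 3 each). The protein-coding JAG2 transcript ENST00000331782.8 had 5.77 ± 0.330 and 5.48 ± 0.793 TPM (SD, n = 3 each). Neither passed the edgeR test (adjusted p 0.778 and 0.987).

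RBPJ counts were spread over 31 transcripts. ENST00000342320.8, protein-coding, made up 64.8% ± 4.30 of them in control and 69.1% ± 3.33 in siDDX5 cells (SD, n = 3 each). The protein-coding ENST00000348160.8 held 7.01%, 7.06% and 6.89% of RBPJ counts in control replicates 1, 2 and 3, and 5.95%, 3.56% and 4.68% in siDDX5 replicates 1, 2 and 3. Its share was lower in all 3 siDDX5 libraries, but the usage p of this transcript in edgeR's diffSpliceDGE was 0.233. DLL1 counts lay mostly on ENST00000616526.2 (70.1% ± 3.15 and 72.4% ± 1.09) and otherwise on ENST00000366756.4 (SD, n = 3 each). MAML1 counts lay mostly on ENST00000638220.2 (95.7% ± 1.80 and 97.0% ± 0.289, SD, n = 3 each). This transcript and ENST00000616526.2 of DLL1 lie outside the primary assembly. The primary-assembly MAML1 transcript of the same length, 5748 bases, ENST00000292599.4, was listed at 0 in every library. The division of reads between such copies was not tested.

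For the targets, ENST00000232424.4 held 80.8% ± 11.9 and 88.8% ± 10.8 of HES1 counts, the rest being on the retained-intron transcript ENST00000476918.1 (SD, n = 3 each). HEY1 counts were divided between ENST00000354724.8 (63.5% ± 6.88 and 56.5% ± 16.2) and ENST00000337919.9 (34.8% ± 6.65 and 38.0% ± 11.2; SD, n = 3 each). Relative usage could be tested in 9 members, all but HES1, and 0 were called by the Simes test per gene in edgeR's diffSpliceDGE, against 1.59% of all genes, and 0 with the block, against 1.21%. Before adjustment 0 had p under 0.05 as well. The smallest Simes p was 0.426, for MAML1.

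The other genes of the pathway were taken from 6 lists written by function, with earlier results of these data known. Of 59 genes, 52 could be tested, and 0 of them passed after adjustment in edgeR (0.164% of all genes). Before adjustment 12 had p under 0.05, of which 4 were higher and 8 lower, or 23.1% against 11.4% of all genes. DESeq2 called 4 of the pathway genes, 2 higher and 2 lower, where it called 297 genes in all. With the replicate block 5 were called, or 9.62% against 2.59% of all genes: LFNG, ADAM17 and CDK8 among the 3 higher, and L3MBTL3 among the 2 lower. The median log2 fold change of the 52 genes was -0.01, against -0.00 over all genes. In 6 of them every siDDX5 library lay above and in 8 below every control library, against 8.87% and 9.16% of all genes.

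**Figure D4:**
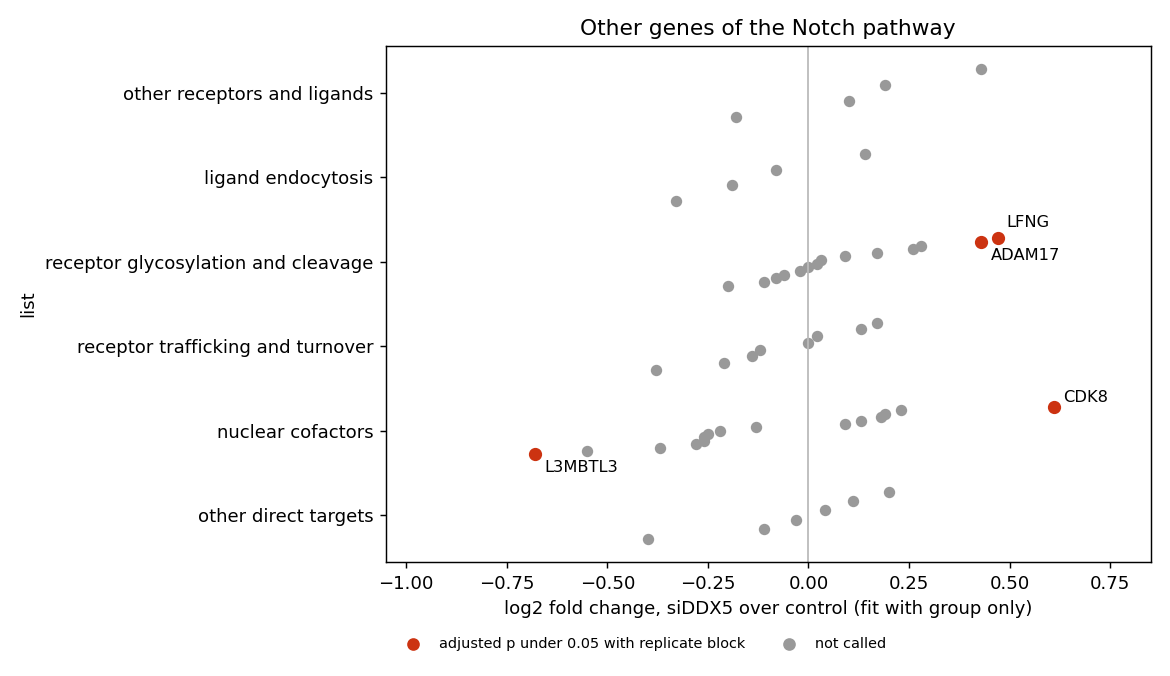
Log2 fold change of 51 other pathway genes tested, siDDX5 over control, by functional list, from the fit with the group alone. Red points are the 4 plotted genes with an adjusted p under 0.05 with the replicate block, from L3MBTL3 at -0.68 to CDK8 at 0.61.

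Of 16 nuclear cofactors tested, 3 were called with the block, 1 higher and 2 lower, against 2.59% of all genes. In 8 the groups did not overlap, 2 above and 6 below, against 18% of all genes (8.87% above and 9.16% below). Before adjustment 7 had p under 0.05 in edgeR, 2 higher and 5 lower, against 11.4% of all genes. With the block 8 did, 2 higher and 6 lower, against 20.5% of all genes. L3MBTL3, a protein that can bind RBPJ and repress its targets, was called lower with the block. L3MBTL3 (ENSG00000198945.7, chromosome 6, 130013699 to 130141451) had 10.03, 9.02 and 9.16 CPM in control and 6.47, 4.93 and 6.16 CPM in siDDX5 cells. Its log2 fold change was -0.68 (standard error 0.17, edgeR adjusted p 0.175; 0.0401 with the block). CDK8, a Mediator kinase that can phosphorylate the Notch intracellular part, went the other way. CDK8 (ENSG00000132964.11, chromosome 13, 26254104 to 26405238) had 24.9, 33.5 and 29.1 CPM in control and 42.5, 49.8 and 41.6 CPM in siDDX5 replicates 1, 2 and 3. The groups did not overlap, and the log2 fold change was 0.61 (standard error 0.14, edgeR adjusted p 0.131; 0.0139 with the block). CCNC, the cyclin partner of CDK8 and the nuclear cofactor with the highest mean TPM, had a log2 fold change of 0.18 (edgeR adjusted p 0.624).

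In the list of receptor glycosylation and cleavage, 2 of 14 genes were called with the block, both higher, against 1.14% of all genes. LFNG, Lunatic fringe, adds sugars to Notch that change which ligands it answers to. LFNG (ENSG00000106003.12, chromosome 7, 2512529 to 2529177) had 43.5, 33.0 and 37.1 CPM in control and 52.6, 48.7 and 56.4 CPM in siDDX5 replicates 1, 2 and 3. On the log2 scale the change was 0.47 (standard error 0.13, edgeR adjusted p 0.221; 0.0411 with the block). ADAM17 is a surface protease able to cut Notch. ADAM17 (ENSG00000151694.13, chromosome 2, 9488486 to 9556732) had 50.5, 50.6 and 61.2 CPM in control and 69.7, 72.4 and 76.3 CPM in siDDX5 cells, a log2 fold change of 0.43 (standard error 0.11, edgeR adjusted p 0.200; 0.0350 with the block). The groups of both genes did not overlap. ADAM10, the main Notch sheddase and the most abundant gene of the list, had a log2 fold change of 0.17 (edgeR adjusted p 0.606), which turned to -0.06 on log2(TPM + 1).

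Without replicate 3 of both groups, CDK8 was called with the block (log2 fold change 0.67). LFNG, ADAM17 and L3MBTL3 were not called there, with log2 fold changes of 0.42, 0.49 and -0.75 that were close to those with all libraries. With the block and GC correction together all 4 genes were called.

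The list of other direct targets was written mainly from the HES and HEY families. Whether Notch drives each of them in these cells was not tested. Of 6 genes tested from this list, 0 were called in either edgeR fit, against 0.164% of all genes, or 2.59% with the block. In each fit 1 had an unadjusted p under 0.05, against 11.4% of all genes, or 20.5% with the block. That gene, HEYL, a relative of HEY1, had a mean of 18.6 TPM over the 6 libraries, above the means of HES1 and HEY1. HEYL had 87.1, 58.8 and 68.9 CPM in control and 57.0, 45.8 and 59.5 CPM in siDDX5 replicates 1, 2 and 3. The groups overlapped by 1 library, with a log2 fold change of -0.40 (standard error 0.16, edgeR adjusted p 0.382; 0.0689 with the block). HES6, which counters HES1 in other tissues, had a log2 fold change of 0.11 (edgeR adjusted p 0.873).

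In the remaining lists 0 genes were called in either edgeR fit, against 0.164% of all genes, or 2.59% with the block. The share of all genes with an unadjusted p under 0.05 was 11.4%, or 20.5% with the block. Of 4 genes for ligand endocytosis, 1 had an unadjusted p under 0.05, MIB1, a ubiquitin ligase for Notch ligands, with a log2 fold change of -0.33 (edgeR adjusted p 0.425; 0.0886 with the block). NEURL1B of the same list had -0.19 (edgeR adjusted p 0.743). Of 8 genes for receptor trafficking and turnover, 1 had an unadjusted p under 0.05, DTX4, a Deltex ligase, with -0.38 (edgeR adjusted p 0.253, or 0.0602 with the block). With the block 2 of the 8 had an unadjusted p under 0.05, DTX4 and NUMB (0.0298 for NUMB by edgeR). NUMB, an inhibitor of Notch, had -0.21 (0.453), and NEDD4, the most abundant gene of this list, 0.17 (0.594, both edgeR adjusted p). Of 4 other receptors and ligands tested, 0 had an unadjusted p under 0.05. DNER, NOTCH4 and DLK2 had log2 fold changes of 0.43, 0.19 and -0.18 and mean TPM below that of every member (edgeR adjusted p 0.594, 0.827 and 0.879).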

How the data were processed

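RNA of 3 control and 3 siDDX5 libraries of Rh30 cells was sequenced from stranded mRNA libraries, per the labels' protocols. The authors deposited 1 table per library with estimated counts and TPM values for 188753 transcripts. Per the file headers these have kallisto's layout, and the submitters' processing notes name kallisto 0.46.0, cutadapt 1.11 and GRCh38. The estimated counts are not normalized, and the TPM values were scaled by the authors per effective length. The annotation and filters they used are not given in the sources used here.

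Transcripts were joined to genes of GENCODE release 29 by identifier (169797), by symbol for copies outside the primary assembly (15291), and by position in the table between transcripts of 1 gene (890). Counts were summed per gene, rounded, filtered with filterByExpr, scaled with TMM and tested in R 4.3.3 by quasi-likelihood in edgeR 4.0.16, in a model of group alone. Calls use an adjusted p under 0.05. The standard error is the log2 fold change over the square root of F. Transcript usage was tested with diffSpliceDGE. The edgeR, DESeq2, limma-trend and usage tests were tested on simulated data, the GC correction was not.

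The replicate numbers come from the titles. Correlations of same-numbered libraries' deviations were 0.21, 0.27 and 0.58 for replicates 1, 2 and 3, all over 0.1, so the block fit is given where it changes a call. Between control and siDDX5 libraries of unlike numbers they ran from -0.35 to 0.08. Intervals and the floor of 3 counts leave out the uncertainty of dividing reads among transcripts. The biological coefficient of variation was 15.7%, and 10.2% with the block.

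The alternatives were DESeq2 1.42.0 (size factors, Wald test), no filter, a mean of at least 50 counts, length-scaled TPM counts, limma-trend (limma 3.58.1) on log2(TPM + 1) and log2(TPM + 0.1), the replicate block, GC correction, both, primary-assembly identifiers only, and leaving out each library. The fits without the join by position and the block fits without 1 replicate number were added after the data were seen. Members and lists were chosen with earlier results of these data known. All members were described. Of other lists, the text names every gene called in either fit, the highest TPM and the 2 smallest p values, except 1 gene that is counted but not reported here.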

Additional observations from a re-analysis of the deposited data

How the results depend on the processing

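The number of members called, 0, was 1 with the replicate block, 1 in the block fit without replicate 1 of both groups, 2 without replicate 2 of both groups (NOTCH1 and NOTCH3), and 0 without replicate 3 of both groups. It was 0 in every other fit, the 6 that each left out 1 library included. NOTCH1 was lower under all 21 alternatives, from -0.56 to -0.33. Signs turned for RBPJ (-0.03 in both limma-trend fits, -0.06 to 0.37 without 1 library, lowest without siDDX5 replicate 3), HES1 (-0.30 to 0.24 without 1 library, above 0 without control replicates 2 or 3, 0.07 and 0.14, or siDDX5 replicate 1), HEY1 (-0.13 to 0.26, below 0 without control replicate 1 or siDDX5 replicate 3), ADAM10 (-0.00 with length-scaled TPM counts, -0.06 in both limma-trend fits), NEURL1B (-0.36 to 0.00, highest without control replicate 1) and HES6 (-0.00 to 0.27, lowest without control replicate 3, and -0.02 and -0.09 in the block fits without replicates 2 and 3). The cause was not tested.

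The other pathway genes called, 0, numbered 4 by DESeq2 and 1 unfiltered. They numbered 5 with the replicate block, 7 when GC was corrected too, and 10, 8 and 2 in the block fits without replicates 1, 2 and 3 of both groups. Over all genes, 25 calls became 297 with DESeq2, 136 with no filter, 2 with length-scaled TPM counts, 1 in both limma-trend fits, 395 with the replicate block, 40 with GC correction and 631 with both. They were 968, 1241 and 211 in the block fits without replicates 1, 2 and 3, and 0 to 15 without 1 library. DDX5 was no longer called on length-scaled TPM counts (-1.37), in limma-trend (-1.44 in both) and 3 of the 6 fits without 1 library (those without control replicate 1, siDDX5 replicate 1 or siDDX5 replicate 2, range of all 6, -1.54 to -1.30). No member transcript and no member's usage was called under the alternatives run for transcripts, which were no filter, a mean of at least 50 counts, the replicate block and leaving out each library. HES1, with 30 to 79 counts per library, and HEY1, with 109 to 195, had the fewest counts of the members, and the part of depth in their standard errors was not tested. HES1 had no adjusted p under DESeq2.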

Other observations

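Of the 7 pathway genes with too few counts to be tested, HES5 was listed at 0 in all 6 libraries. DTX1, RBPJL and HES3 had at most 1 count in any library, under the floor of 3 counts. DLL3 had 2 to 5 counts and HES2 1 to 6 counts per library. DLK1 had 12, 4 and 7 counts in control replicates 1, 2 and 3, and 9, 9 and 5 counts in siDDX5 replicates 1, 2 and 3.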
